A study of Homo sapiens with 9 samples.

Results

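The 8 hairpins of the neural miRNAs miR-124, miR-9 and miR-129 were followed in a small RNA sequencing table of 1485 human miRNA hairpins. They were taken by name, as hsa-mir-124-1, -2 and -3, hsa-mir-9-1, -2 and -3, and hsa-mir-129-1 and -2, and all 8 had a row. The study asked how mature miRNAs differ when ERH is knocked down. ERH is a small nuclear protein that binds DGCR8, the RNA-binding partner of the DROSHA nuclease. HEK293E, an HEK293 line of embryonic kidney origin, was transfected with siRNAs by lipofection on days 0 and 3 and harvested on day 5. Its 4 control libraries are siGFP and siControl, each in replicates 1 and 2, and its 3 siERH libraries are 2 of siERH-3 (replicates 1 and 2) and 1 of siERH-5 (replicate 2). K562, a leukaemia line with erythroid features, was transfected once by electroporation and harvested after 4 days, with 1 siGFP and 1 siERH-5 library. The labels give no genetic alteration for either line. Both lines lack neurons, so the hairpins were measured outside the tissue they are best known from. The labels do not say whether replicates are separate cultures, so p-values measure the spread between these libraries, which may be technical.

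miR-124 is the most characteristic miRNA of neurons and represses many transcripts that neurons do not use. miR-9 acts in neural progenitors and during neuron formation, and its arms target parts of the REST repressor complex that silences neuronal genes. miR-129 is enriched in the brain and represses ion channel transcripts in neurons. Each is made from several hairpins at separate loci. DROSHA and DGCR8 cut the hairpin from its primary transcript, DICER removes the loop, and 1 arm of the remaining duplex guides an Argonaute protein through its seed, bases 2 to 8.

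The mature sequences are shown because they decide which copies can be told apart. The RefSeq tables (GRCh38.p14) held 5 of the 8 hairpins, those of miR-9 and miR-129. Both arms are identical in the 3 miR-9 hairpins. Capitals mark the seed in the mature sequences, written 5′ to 3′.
hsa-miR-9-5p: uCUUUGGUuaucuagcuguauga
hsa-miR-9-3p: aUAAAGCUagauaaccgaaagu
hsa-miR-129-5p: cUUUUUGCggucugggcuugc
hsa-miR-129-1-3p: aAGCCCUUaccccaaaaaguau
hsa-miR-129-2-3p: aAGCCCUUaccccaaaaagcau
The 3p arms of miR-129-1 and miR-129-2 share their seed and differ by U20C, counted from 1 at the 5′ end of hsa-miR-129-1-3p. The 4 seeds of these arms differ from each other, and 0 other mature miRNAs in the RefSeq table carry any of them.

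The hairpins are shown because their loops differ where their arms do not. Capitals mark the 5p and 3p arms.
MIR9-1, chr1:156420341-156420429, minus strand: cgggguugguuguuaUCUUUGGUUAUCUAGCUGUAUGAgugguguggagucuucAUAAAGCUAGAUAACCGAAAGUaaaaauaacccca
MIR9-2, chr5:88666853-88666939, minus strand: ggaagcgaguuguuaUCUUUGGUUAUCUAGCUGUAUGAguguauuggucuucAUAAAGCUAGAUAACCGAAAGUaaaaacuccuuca
MIR9-3, chr15:89368017-89368106, plus strand: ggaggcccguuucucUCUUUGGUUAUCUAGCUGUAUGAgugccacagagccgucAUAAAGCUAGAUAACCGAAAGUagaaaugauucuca
MIR129-1, chr7:128207872-128207943, plus strand: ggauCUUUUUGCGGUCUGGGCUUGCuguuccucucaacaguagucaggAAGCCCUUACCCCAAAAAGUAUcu
MIR129-2, chr11:43581394-43581483, plus strand: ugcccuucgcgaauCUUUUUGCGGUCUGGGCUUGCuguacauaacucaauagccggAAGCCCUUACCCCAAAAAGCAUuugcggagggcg
The stretch between the arms was 16, 14 and 16 bases in MIR9-1, MIR9-2 and MIR9-3, and 23 and 21 bases in MIR129-1 and MIR129-2. The letters UGU, which DGCR8 is known to favour in the loop, stood between the arms in 4 of these 5 hairpins, MIR9-3 being the one without them, a count added after the data had been seen. Of the 739 RefSeq hairpins with both arms listed, 33.7% held UGU there. A match of these letters is a description and not a measured contact.

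In the GENCODE 29 annotation (GRCh38), most of the loci lie in host transcripts. hsa-mir-9-1 is in an intron of the protein-coding gene C1orf61, hsa-mir-9-2 within an exon of the lincRNA LINC00461, and hsa-mir-9-3 in an intron of the lincRNA MIR9-3HG. hsa-mir-124-1 (chromosome 8, 9903388 to 9903472) is within an exon of the lincRNA LINC00599, and hsa-mir-124-2 (chromosome 8, 64379149 to 64379257) is in an intron of the lincRNA MIR124-2HG. hsa-mir-124-3 (chromosome 20, 63178500 to 63178586) lies opposite an intron of the lincRNA AL096828.1. hsa-mir-129-2 is in an intron of AC068205.1, and hsa-mir-129-1 overlaps no other annotated gene.

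The copies shared their counts to different degrees. Across the 9 libraries the lowest and highest of the 3 miR-124 copies differed by at most 11 counts, and those of the 3 miR-9 copies by at most 53. The lowest miR-9 copy held 0.994 to 0.999 of the highest. hsa-mir-129-1 held 0.446 to 0.654 of the counts of hsa-mir-129-2, so these copies were partly resolved. For miR-124 and miR-9 the table therefore gives 1 measurement per family, and it does not show which locus the reads came from. Values are given below for the copy with the most counts, hsa-mir-124-3 and hsa-mir-9-2, and for both miR-129 copies.

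The 9 libraries held 2609929 to 3320017 hairpin counts, so 3 counts correspond to 0.904 to 1.15 counts per 1000000 hairpin counts (CPM). The erythroid and other blood-lineage hairpins hsa-mir-144, hsa-mir-451a, hsa-mir-486-1, hsa-mir-486-2, hsa-mir-142 and hsa-mir-223 summed to 144266 to 149893 CPM in K562 and 2028 to 3144 CPM in HEK293E, and each of the 6 was higher in both K562 libraries than in every HEK293E library. None of them was at 0 in any library. ERH mRNA is not measured by small RNA sequencing, so the knockdown itself could not be checked here. Because spike-in counts were not used here, all levels are relative to the other hairpins of the library.

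The first question was how abundant these hairpins are in each line without ERH knockdown. In the HEK293E controls miR-9 stood far above the other families: on library totals, hsa-mir-9-2 had 2740 ± 162 CPM (SD, n = 4), rank 96 of 1485 hairpins. hsa-mir-129-2 had 249 ± 57.6 CPM, hsa-mir-124-3 had 183 ± 47.8 CPM and hsa-mir-129-1 had 140 ± 49.2 CPM (SD, n = 4), at ranks 231, 248 and 275. The control ranges of hsa-mir-129-2 (182 to 300 CPM) and hsa-mir-124-3 (141 to 252 CPM) overlapped, as did those of hsa-mir-124-3 and hsa-mir-129-1 (92.7 to 190.2 CPM). Within libraries, hsa-mir-129-2 was above hsa-mir-124-3 in each of the 4 controls, though by little in siGFP replicate 2 (474 and 462 counts). hsa-mir-124-3 was above hsa-mir-129-1 except in siControl replicate 1 (490 and 523 counts). The median hairpin had 3.08 CPM, so none of the families was near the detection limit in HEK293E. These are levels of mature-sized fragments and were not divided by hairpin length.

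K562 held less of every family, as it did of most hairpins: 71.4% of all 1485 were higher in the HEK293E control mean than in K562 siGFP. In the K562 siGFP library hsa-mir-9-2 had 2072 counts, or 793 CPM with a 95% Poisson interval of 759 to 828. hsa-mir-129-2 had 90 counts, 34.4 CPM (27.7 to 42.3), and hsa-mir-129-1 had 52 counts, 19.9 CPM (14.9 to 26.1). hsa-mir-124-3 had 2 counts, 0.765 CPM (0.0927 to 2.76), which is below the limit of 3 counts. The HEK293E controls thus exceeded K562 siGFP 3.46-fold for hsa-mir-9-2 (95% exact interval of the count ratio 3.31 to 3.62), 7.32-fold for hsa-mir-129-2 (5.93 to 9.13) and 241-fold for hsa-mir-124-3 (66.7 to 1994). These intervals cover counting error only. K562 has 1 control library, the transfection and harvest differed between the lines, and the difference between lines was not tested over replicates.

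**Figure D1:**
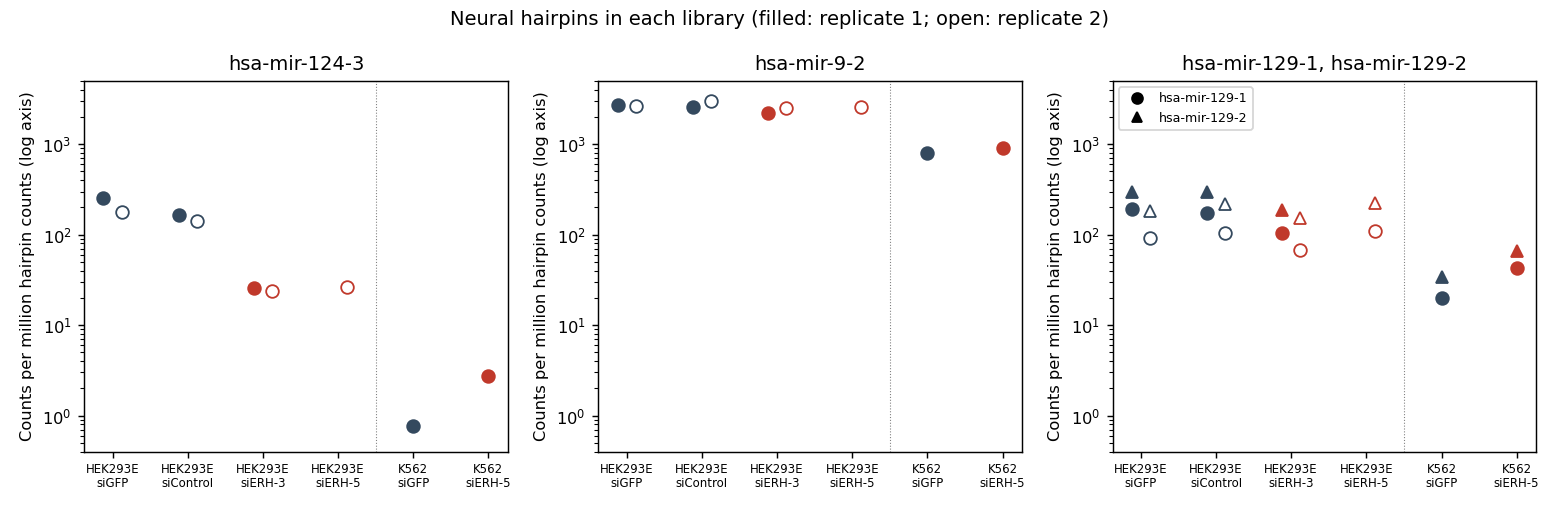
CPM on library totals (log axis) of hsa-mir-124-3, hsa-mir-9-2 and both miR-129 hairpins in each of the 9 libraries, with siERH libraries in red and control libraries in dark blue. hsa-mir-124-3 stands at 141 to 252 CPM in the HEK293E controls and at 24.1 to 26.5 CPM in the siERH libraries, while hsa-mir-9-2 stays between 2237 and 2973 CPM in all HEK293E libraries.

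The second question was how these hairpins differed between siERH and control libraries in HEK293E. The 3 miR-124 hairpins fell about 8-fold and the 2 miR-129 hairpins fell to 60.3% and 66.7% of control. The 3 miR-9 hairpins did not pass the threshold in this test, and passed it in 3 of the alternatives given with them. The edgeR quasi-likelihood test did not use the replicate number and was adjusted by Benjamini-Hochberg over 773 hairpins. At an adjusted p under 0.05, 5 of the 8 hairpins were lower, 0 were higher and 3 were not called. The 5 are copies from only 2 families. Of all 773 hairpins 16.2% were lower and 23.8% higher, 40.0% in either direction, and the median log2 fold change was -0.01 over all hairpins and -0.66 over the 8. All 8 hairpins passed the filter of a mean of at least 10 counts. With the replicate number as a block all 8 were lower, against 20.6% of all hairpins (28.1% were higher).

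miR-124 was tight among the siERH libraries and more spread among the controls. After scaling by TMM, the trimmed mean method that equalises libraries on the bulk of hairpins, hsa-mir-124-3 had 233 and 195 CPM in the siGFP libraries of replicates 1 and 2, and 172 and 165 CPM in the siControl libraries. In the siERH libraries it had 23.7 CPM (siERH-3, replicate 1), 22.9 CPM (siERH-3, replicate 2) and 24.4 CPM (siERH-5, replicate 2). Each siERH library was thus far below each control, with no overlap, and the siERH libraries lay within 2 CPM of each other. On the same scale 19.1% of all hairpins tested had all siERH libraries below all controls. The control mean of 191 ± 30.9 CPM (SD, n = 4) became 23.7 ± 0.776 CPM (SD, n = 3), or 12.4% of control. This is -3.01 ± 0.22 on the log2 scale (SE; edgeR adjusted p = 5.53e-06), the fifth most negative value of the 773. The raw counts were 433 to 817 in the controls and 75 to 86 in the siERH libraries, so the low arm was still well above the limit of 3 counts. The 95% Poisson interval of the 75 counts is 59.0 to 94.0, wider than the spread between the siERH libraries. Their closeness is thus within counting error. hsa-mir-124-1 and hsa-mir-124-2 each gave -2.99 ± 0.22 (SE) from nearly the same reads. In these bulk libraries a lower level in every cell and fewer cells carrying the miRNA cannot be told apart.

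miR-124 was low with both ERH siRNAs. Against the controls of its own replicate, the log2 ratio of hsa-mir-124-3 was -3.04 for siERH-3 in replicate 1, -2.92 for siERH-3 in replicate 2 and -2.83 for siERH-5 in replicate 2. The last of these comes from 1 library and has no replicate check of its own. Between the control siRNAs, hsa-mir-124-3 was lower with siControl than with siGFP in both replicates, by -0.36 ± 0.27 on the log2 scale (SE; edgeR adjusted p = 0.959). With the replicate number as a block that value was -0.35 (edgeR adjusted p = 0.0739). Of the 730 hairpins tested between the control siRNAs, 0 were called by edgeR (0.00%). Of these hairpins 24 had an unadjusted p under 0.05, and DESeq2 called 2 lower and 2 higher. The block called 18.2% (8.36% lower and 9.86% higher), and 0 of the 8 hairpins were among them.

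miR-129 showed a smaller difference that depended on the libraries. hsa-mir-129-2 had 278 and 310 CPM with siGFP and siControl in replicate 1, and 200 and 257 CPM in replicate 2. With siERH-3 it had 172 CPM in replicate 1 and 146 CPM in replicate 2, and with siERH-5 205 CPM. The siERH-3 libraries were below every control, whereas siERH-5 was above the replicate 2 siGFP control, so the arms overlapped. The mean went from 261 ± 46.3 CPM (SD, n = 4) to 174 ± 29.9 CPM (SD, n = 3), which is -0.58 ± 0.21 as a log2 fold change (SE, by edgeR; adjusted p = 0.0452).

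hsa-mir-129-1 followed the same order. It had 177 and 184 CPM in the replicate 1 controls and 102 and 121 CPM in the replicate 2 controls, against 96.6 and 65.0 CPM with siERH-3 and 102 CPM with siERH-5. Here too the siERH-5 library was level with the lowest control. From 146 ± 40.5 CPM (SD, n = 4) to 88.0 ± 20.1 CPM (SD, n = 3), the edgeR estimate was -0.73 ± 0.26 (log2, SE; adjusted p = 0.0477). With library totals in place of TMM neither copy was called, at -0.56 (edgeR adjusted p = 0.183) for hsa-mir-129-1 and -0.41 (edgeR adjusted p = 0.213) for hsa-mir-129-2. That scaling moved the median of all hairpins by 0.20. Among the fits that left out 1 library, hsa-mir-129-1 kept its call only without the replicate 2 siGFP or replicate 2 siControl library (edgeR adjusted p of 0.0700 to 0.192 without each of the others). hsa-mir-129-2 kept it only without the replicate 2 siGFP or the siERH-5 library (0.0534 to 0.188 without each of the others). With the block the changes were -0.61 and -0.54 (edgeR adjusted p = 0.0292 and 0.0322), and within replicate 2 alone -0.36 and -0.33 (edgeR adjusted p = 0.349 and 0.366).

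The siRNAs against ERH gave unequal values for miR-129. Against the same replicate 2 controls, hsa-mir-129-1 had a log2 ratio of -0.77 with siERH-3 and -0.12 with siERH-5, and hsa-mir-129-2 of -0.65 and -0.15. On library totals the siERH-5 ratios were 0.17 and 0.15, above the controls, so their direction depends on the scaling. The replicate 1 siERH-3 ratios were -0.89 and -0.77. siERH-5 has 1 library in HEK293E, and the difference between the siRNAs was not tested. For the partly resolved copies, the log2 ratio of hsa-mir-129-1 to hsa-mir-129-2 averaged -0.87 ± 0.20 (SD, n = 4) with control siRNAs and -0.999 ± 0.166 (SD, n = 3) with ERH siRNAs. The difference of -0.13 was within the spread (two-sided exact permutation test over 35 splits, p = 0.371). This comparison was chosen after the values were seen.

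miR-9 was the most abundant family. hsa-mir-9-2 had 2521 and 2935 CPM with siGFP and 2746 and 3467 CPM with siControl in replicates 1 and 2. With siERH-3 it had 2049 and 2376 CPM, and with siERH-5 2406 CPM. All siERH libraries were below all controls on this scale. On library totals, however, the siERH-5 library (2611 CPM) just passed the lowest control (2606 CPM). The mean went from 2917 ± 404 CPM (SD, n = 4) to 2277 ± 198 CPM (SD, n = 3), which is -0.36 ± 0.16 as a log2 fold change (SE, by edgeR; adjusted p = 0.0998).

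On the TMM scale, the replicate 2 library of hsa-mir-9-2 was above the replicate 1 library for each of the 3 siRNAs with 2 libraries. With the replicate number as a block, hsa-mir-9-2 was called lower, at -0.40 ± 0.12 (SE; edgeR adjusted p = 0.0169), as were its copies, so that all 8 hairpins were then lower, against 20.6% of all hairpins (28.1% were higher, 48.6% in either direction). Within replicates, the TMM log2 ratios of the 3 siERH libraries were close, at -0.36, -0.43 and -0.41, the last 2 against the same controls. On library totals the siERH-5 ratio was only -0.11. The call was also made without the siGFP library of replicate 1 (-0.43, edgeR adjusted p = 0.0420) and by DESeq2 (-0.42, adjusted p = 0.0418). On library totals the change was -0.16 (edgeR adjusted p = 0.381). In the pooled fit the change of miR-9 was smaller than that of miR-129, but in replicate 2 alone it was -0.37 for hsa-mir-9-2 (edgeR adjusted p = 0.0639), beside the -0.36 and -0.33 of the miR-129 copies.

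**Figure D2:**
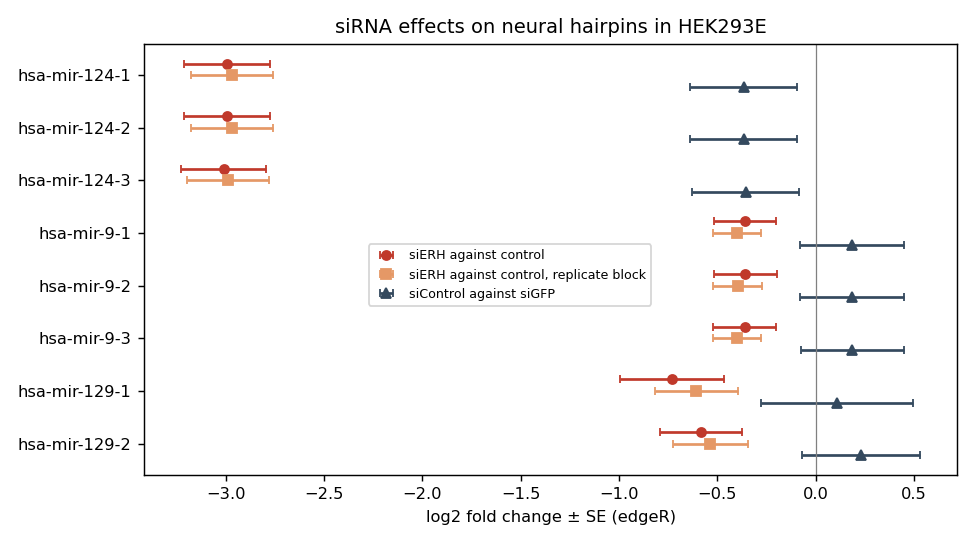
log2 fold changes with standard errors (edgeR) of the 8 hairpins in HEK293E for siERH against control without and with the replicate block, and for siControl against siGFP. The miR-124 copies lie at -3.01 to -2.97, the miR-129 and miR-9 copies between -0.73 and -0.36, and the control comparison between -0.37 and 0.23.

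Ratios between families within a library do not depend on how libraries are scaled, and they test whether miR-124 changed more than its companions. The log2 ratio of hsa-mir-124-3 to hsa-mir-9-2, from counts plus 1, averaged -3.93 ± 0.39 (SD, n = 4) over the controls and -6.57 ± 0.14 (SD, n = 3) over the siERH libraries. The difference of -2.63, or 6.21-fold, gave p = 0.0286 in a two-sided exact permutation test, the smallest value 35 splits allow, and 0.0429 adjusted over the 3 family pairs. Against hsa-mir-129-2 the ratio went from -0.44 ± 0.37 to -2.85 ± 0.20, a difference of -2.41 or 5.30-fold (exact permutation p = 0.0286, adjusted 0.0429). In both ratios every siERH library was below every control. The ratio of hsa-mir-129-2 to hsa-mir-9-2 was -3.49 ± 0.38 in control and -3.72 ± 0.27 in siERH libraries, and the difference of -0.23 did not exceed the spread (exact permutation p = 0.429, adjusted 0.429). Permuted within replicates as a block, the miR-124 differences were -2.58 and -2.43 (exact permutation p = 0.0556, the smallest 18 splits allow).

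**Figure D3:**
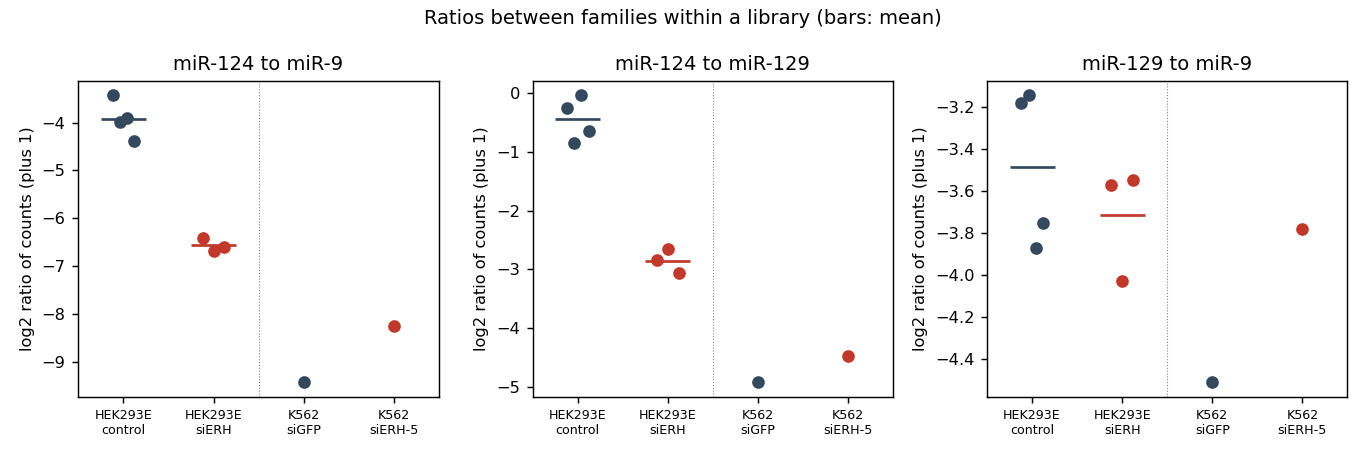
log2 ratio of counts plus 1 between families in each library, with bars at the means of the HEK293E groups. Both miR-124 ratios separate the HEK293E siERH libraries from the controls, with mean differences of -2.63 and -2.41, whereas the miR-129 to miR-9 ratios of the HEK293E groups overlap.

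In K562 the same siRNA siERH-5 was compared with siGFP, with 1 library each and hence no test. None of the 8 counting intervals lay below 1 there. The siGFP library held 2 counts of hsa-mir-124-3 and the siERH-5 library 9. The scaled ratio was 2.91 with a 95% counting interval of 0.603 to 27.7, so neither a rise nor a fall was detectable at this depth. hsa-mir-9-2 had 2072 and 3041 counts, a scaled ratio of 0.95 (0.898 to 1.01). Its direction depended on the scaling, with a log2 ratio of -0.07 by TMM and 0.21 on library totals.

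miR-129 was higher in the siERH-5 library of K562. hsa-mir-129-1 had 52 and 144 counts, a scaled ratio of 1.79 (95% counting interval 1.30 to 2.51), and hsa-mir-129-2 had 90 and 220 counts, a ratio of 1.58 (1.23 to 2.05). With TMM neither reached 2-fold, which 10.1% of the 646 hairpins above the count filter did upward and 6.81% downward. On library totals hsa-mir-129-1 passed 2-fold, at a log2 ratio of 1.09, and hsa-mir-129-2 stayed below it, at 0.925. The log2 ratios, from TMM CPM plus 1, were 0.81 and 0.65, against a median of 0.11 over all 646 hairpins. The intervals cover counting error between these 2 libraries and not the spread between cultures.

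**Figure D4:**
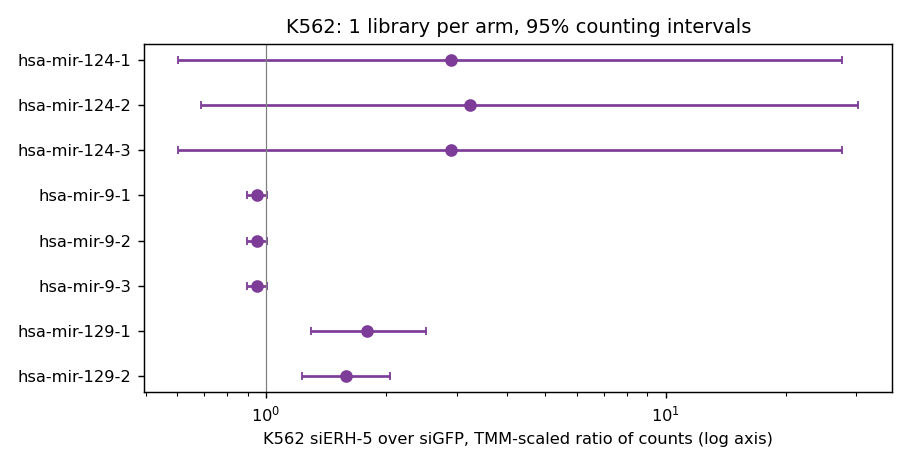
Ratio of the K562 siERH-5 library to the siGFP library for the 8 hairpins (log axis, TMM-scaled counts, 95% exact counting intervals, 1 library per arm). The miR-124 intervals span 0.603 to 30.4, the miR-9 ratios lie at 0.95, and the miR-129 intervals lie above 1.

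A list of 23 other hairpins of brain-enriched miRNAs placed these values among their kind. Of the 20 that passed the filter, 9 were lower, 0 were higher and 11 were not called in HEK293E siERH libraries, with a median log2 fold change of -0.13. The 9 come from 6 miRNA names. Of all 773 hairpins tested, 16.2% were lower and 23.8% higher. With the block 9 of the list were lower and 3, the copies of miR-7, were higher, against 20.6% and 28.1% of all hairpins. hsa-mir-212, an activity-regulated neuronal miRNA, went from 144 ± 59.9 to 15.1 ± 4.62 CPM (SD, n = 4 and 3), a change of -3.24 ± 0.38 (log2, SE; edgeR adjusted p = 0.000113). It is the member of the list whose change was nearest in size to that of miR-124. hsa-mir-132, its neighbour in the same primary transcript, gave 0.03 ± 0.21 (SE; edgeR adjusted p = 0.912); it was named after its value was seen. hsa-mir-326 changed by -0.86 ± 0.21, hsa-mir-338, a glial miRNA, by -0.80 ± 0.16, and hsa-mir-153-2, a neuronal miRNA, by -0.62 ± 0.20 (SE; edgeR adjusted p = 0.00917, 0.00305 and 0.0299). The remaining lower hairpins were the copies of miR-125b and miR-219a and the other copy of miR-153.

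In K562 the siERH-5 ratio was above 1 for 15 and below 1 for 6 of the listed hairpins above the count filter. Their median log2 ratio was 0.38, against 0.11 over all 646 hairpins, with 1 library per arm and no test. Several of the listed hairpins are copies of 1 miRNA name, so the 15 and 6 hold fewer separate measurements. Among the 4 hairpins named for their change in HEK293E, the values differed. The counts of hsa-mir-212 were 96 with siGFP and 29 with siERH-5, a log2 ratio of -2.22, whereas hsa-mir-326 (1148 and 2512 counts), hsa-mir-338 (31 and 87) and hsa-mir-153-2 (54 and 164) had ratios of 0.50, 0.81 and 0.94. In the HEK293E controls 20 of the 23 were higher than in K562 siGFP. This is to be read against 71.4% of all hairpins and 79.5% of those with a mean of at least 10 counts.

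Across the 7 HEK293E libraries, the hairpins whose log2(CPM + 1) was most like that of hsa-mir-124-3 were hsa-mir-449c (Pearson r = 0.998), hsa-mir-502 (0.996) and hsa-mir-425 (0.993). hsa-mir-124-3 varied mainly between siERH and control libraries, so this choice picks hairpins that are lower in siERH libraries. Their log2 fold changes were -2.14 ± 0.20, -1.22 ± 0.15 and -1.53 ± 0.15 (SE; edgeR adjusted p = 4.08e-05, 0.000169 and 5.32e-05). These values follow from the selection and are not a separate finding. hsa-mir-449c, of a miRNA family known from multiciliated cells, went from 100.5 ± 11.8 to 22.7 ± 0.819 CPM (SD, n = 4 and 3), which brought it to the level of miR-124. None of these 3 is in the list of brain-enriched hairpins. Most like hsa-mir-9-2 were hsa-mir-374c, hsa-mir-1260a and hsa-mir-4517 (r = 0.974, 0.968 and 0.949), and most like hsa-mir-129-2 were hsa-mir-125b-2, hsa-mir-125b-1 and hsa-mir-182 (r = 0.988, 0.987 and 0.973). These coefficients describe 7 libraries that share their scaling and replicates.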

How the data were processed

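Small RNAs of 18 to 30 nt were gel-purified from 10 µg total RNA per sample, after 30 spike-in RNAs had been added, per the labels. The authors deposited raw counts per hairpin, and RPM values that recomputation showed to be the count plus 1 over the library total plus 1485 (largest relative error 1.1e-09). The submitters' processing notes name cutadapt, Bowtie2, bedtools and build hg38. The annotation and the treatment of multi-mapped reads are not given in the sources used here. Blank cells among the counts (2336) were read as 0.

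Counts were tested with edgeR 4.0.16 (quasi-likelihood, TMM, mean of at least 10 counts, Benjamini-Hochberg over all hairpins, adjusted p under 0.05) in R 4.3.3. The SE is the log2 fold change over the square root of F. On simulated data of 773 hairpins for the siERH comparison, the test recovered 72 of 98 planted 2-fold and 92 of 93 planted 4-fold changes. It made 10 false calls, and called 0 when nothing changed. The simulated counts were independent, without a replicate effect or reads shared between copies. No change below 2-fold was planted, so changes as small as those of miR-129 and miR-9 were not covered. Ratios without a test used TMM CPM plus 1. Count intervals are exact (95%).

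Replicate numbers were taken to pair the libraries only in the block alternatives and the within-replicate ratios. The main edgeR fit did not use them, although deviations from the group means correlated at 0.480 to 0.692 for all 3 pairs of siRNAs. The members, the lists and the tests were chosen with earlier results of these data known. Named hairpins are the 8 members, the 4 largest called changes of the brain list, and the 3 most alike hairpins per family. Alternatives were library totals, DESeq2 1.42.0, no filter, limma 3.58.1 on log2(RPM + 1), the replicate block, 1 copy per name, subsets of libraries, other pseudocounts, and leaving out each library. Positions are from GENCODE release 29. Exact tests and intervals used scipy 1.17.1 in Python 3.11.15, with tables in pandas 2.3.3 (numpy 2.4.6) and plots in matplotlib 3.10.9.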

Additional observations from a re-analysis of the deposited data

Results flagged for a closer look

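For 5 hairpins, the copies of miR-124 and miR-129, the estimated siERH ratio differed in direction between the cell lines. On TMM-scaled values they were below the mean of the controls of their replicate in all 3 HEK293E siERH libraries. In the K562 siERH-5 library they were above siGFP. The K562 log2 ratios were 0.907 for hsa-mir-124-1, 1.02 for hsa-mir-124-2 and 0.907 for hsa-mir-124-3, which rest on 2 counts against 9 or 10. The miR-124 copies share their reads and are 1 measurement. Their 95% counting intervals in K562 span a ratio of 1, so no direction is shown there. For hsa-mir-129-1 and hsa-mir-129-2 the K562 log2 ratios were 0.814 and 0.648. The HEK293E ratios ran from -3.04 to -2.80 for miR-124 and from -0.892 to -0.123 for miR-129. With siERH-5 both miR-129 hairpins were above the replicate 2 siGFP control, at 102.3 against 102.1 CPM and 205.1 against 199.9 CPM. On library totals the HEK293E siERH-5 ratios of miR-129 were above 0, at 0.175 and 0.146. With a single K562 library per arm, no test of the difference between the lines was made. A check for a control library standing apart from the other HEK293E controls flagged 0 of the 8 hairpins, where chance gives about 1 in 20. Copies share reads and flags are rare by chance, so this count says little about the spread of the controls.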

How the results depend on the processing

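The 3 miR-124 hairpins kept their direction and their call in all 16 or 17 alternatives run, with log2 fold changes from -3.19 to -2.73 and adjusted p-values of at most 0.000224. hsa-mir-129-1 was called in 5 of 16 alternatives (-0.88 to -0.36, adjusted p 0.0145 to 0.349), hsa-mir-129-2 in 7 of 17 (-0.73 to -0.33, 0.0109 to 0.366) and hsa-mir-9-2 in 3 of 17 (-0.48 to -0.16, 0.0169 to 0.386), always on the lower side. These alternatives count 1 fit under 2 names, because leaving out siERH-5 leaves only the siERH-3 libraries. Both entries of that fit are among the 7 calls of hsa-mir-129-2. With 1 copy per name, hsa-mir-129-2 was at an edgeR adjusted p of 0.0632. Over all hairpins, 125 were lower and 184 higher. Library totals left 67 lower and limma 66, so that 24.0% and 23.7% of all calls were lower, against 40.5%. Leaving out 1 library gave 76 to 130 lower and 136 to 189 higher, the lowest without a siERH-3 library. The replicate block gave 159 lower and 217 higher, and changed no call of miR-124 or miR-129. Between siControl and siGFP (0 lower, 0 higher), DESeq2 and no filter each gave 2 lower and 2 higher, the replicate block 61 and 72, and leaving out 1 library 0 lower and 0 to 1 higher. Leaving out 1 library there leaves a lone library, which is assumed to vary like the others. The ratio of miR-124 to miR-9 changed by -2.58 and that of miR-124 to miR-129 by -2.43 with the replicate block (adjusted exact permutation p = 0.0833), and by -2.79 to -2.47 and -2.54 to -2.27 when 1 library was left out. With 1 library fewer the adjusted p was 0.1 to 0.15, the unadjusted p being the smallest that the remaining splits allow. In K562 the miR-9 ratios were 0.208, 0.208 and 0.207 on library totals, against -0.07 with TMM. In HEK293E the siERH-5 ratios of hsa-mir-129-1 and hsa-mir-129-2 were 0.175 and 0.146 on library totals. Other causes were not tested. Depth limits miR-124 in K562, at 2 counts with siGFP.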
